A study of Homo sapiens with 17 samples.

Results

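The 10 genes described here, CDH1, EPCAM, CDH2, VIM, FN1, ZEB1, ZEB2, SNAI1, SNAI2 and TWIST1, are the textbook markers and regulators of the epithelial-mesenchymal transition. They were chosen by name, and stand among 19974 protein-coding genes on chromosomes 1 to 22 and X of GRCh38. For each gene, all FOXA1 and FOSL2 peaks in the gene and 50 kb either side were collected from every list, together with the cover of the gene and its ends by the repressive marks H3K9me3 and H3K27me3. The data are chromatin immunoprecipitation with sequencing (ChIP-seq) from A549, an established human lung carcinoma line. Cells of 3 kinds were used, with 2 biological replicate libraries of each target. The first were A549 cells with integrated A-Fos given doxycycline (1 µg/mL for 48 h, FOXA1 and FOSL2), and the second were the same A-Fos cells without doxycycline (FOXA1 and FOSL2). The third were unmodified wild-type (WT) A549 cells, not treated (FOXA1, H3K9me3 and H3K27me3). A-Fos is a dominant-negative protein that pairs with Jun family members and keeps the AP-1 dimer off DNA. Whether the A-Fos cells were 1 clone is not stated in the labels, and no doxycycline-treated cells lacking A-Fos were analysed, so effects of doxycycline and of A-Fos cannot be told apart.

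In the epithelial-mesenchymal transition, cells joined by E-cadherin give up their junctions and take on a motile state with N-cadherin, vimentin filaments and a fibronectin matrix. Snail, ZEB and TWIST proteins are the transcription factors known to drive it. Snail and ZEB proteins bind E-boxes in the CDH1 promoter and repress it, and microRNAs of the miR-200 family and miR-205 in turn repress ZEB1 and ZEB2. FOXA1 is a pioneer factor of lung and other endodermal epithelia, and FOSL2 (Fra-2) is a Fos family subunit of AP-1. H3K27me3 is laid down by Polycomb at silent developmental genes, and H3K9me3 marks constitutive heterochromatin and zinc finger gene clusters.

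A few of the sequences involved are shown first. The promoters run from 250 bases before to 50 after an annotated start (RefSeq, GRCh38.p14), with capitals for matches to 3 motifs searched on both strands: TGANTCA (AP-1, its own reverse complement in form), TGTTTAC (forkhead) and CAGGTG (the E-box of ZEB and Snail proteins). VIM is shown because it was the only one of the 10 genes with a FOSL2 region at its start. ZEB1 promoters 1 and 7 are shown because each held a motif and lay under a FOXA1 peak of 1 WT library. Peak and motif did not always go together at ZEB1. The same library had a peak over 261 bases of ZEB1 promoter 5, which held none of the motifs. ZEB1 promoter 3 held 3 E-boxes and lay under no peak. Neither is printed. The CDH2 promoter is shown as the only one of 12 that held an AP-1 motif; these 12 belong to 5 of the 10 genes.
VIM, chr10:17227991-17228290, plus strand: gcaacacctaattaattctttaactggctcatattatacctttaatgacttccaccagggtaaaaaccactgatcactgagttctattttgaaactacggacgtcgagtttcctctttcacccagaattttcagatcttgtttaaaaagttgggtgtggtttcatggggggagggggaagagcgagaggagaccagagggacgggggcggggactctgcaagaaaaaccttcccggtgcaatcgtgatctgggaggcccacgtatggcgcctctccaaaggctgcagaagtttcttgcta
ZEB1 promoter 1, chr10:31318167-31318466, plus strand: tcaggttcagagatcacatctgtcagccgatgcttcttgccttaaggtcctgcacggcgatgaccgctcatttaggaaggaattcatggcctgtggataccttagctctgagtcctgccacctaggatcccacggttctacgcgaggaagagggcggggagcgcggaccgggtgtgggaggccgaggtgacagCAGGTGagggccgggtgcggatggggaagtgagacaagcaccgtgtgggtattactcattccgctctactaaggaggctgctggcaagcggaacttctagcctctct
ZEB1 promoter 7, chr10:31321410-31321709, plus strand: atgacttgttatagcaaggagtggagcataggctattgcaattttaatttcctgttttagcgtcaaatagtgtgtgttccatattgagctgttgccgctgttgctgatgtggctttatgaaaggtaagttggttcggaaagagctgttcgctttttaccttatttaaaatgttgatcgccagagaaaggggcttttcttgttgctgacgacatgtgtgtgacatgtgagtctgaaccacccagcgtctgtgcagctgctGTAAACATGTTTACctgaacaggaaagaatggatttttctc
CDH2 promoter 1, chr18:28036592-28036891, minus strand: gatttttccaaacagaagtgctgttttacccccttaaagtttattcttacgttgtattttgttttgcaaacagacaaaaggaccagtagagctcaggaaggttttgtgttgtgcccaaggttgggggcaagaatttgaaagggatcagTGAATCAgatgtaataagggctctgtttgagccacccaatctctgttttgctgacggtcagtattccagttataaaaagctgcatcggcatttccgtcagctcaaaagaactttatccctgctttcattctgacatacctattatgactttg
The VIM promoter held none of the 3 motifs, which says only that these letters are not in this window. ZEB1 promoter 1 held 1 E-box, 57 bases before the start, and ZEB1 promoter 7 held a forkhead motif in each orientation side by side, the second 16 bases after the start. The AP-1 match of the CDH2 promoter lay under no peak of either factor. Of the 12 promoters matched, 1 held the AP-1 motif, 1 the forkhead motif and 2 the E-box, against 7.68%, 3.42% and 20.6% of the 34961 promoters in the same table.

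The 14 lists differed in length and give no read counts. The depth each library reached was therefore unknown, and was not separated from binding. On chromosomes 1 to 22 and X, FOSL2 had 1854 and 5274 peaks with doxycycline, against 45586 and 14842 without it. FOXA1 had 11112 and 15065 peaks with doxycycline, 7633 and 13247 without it, and 49448 and 80318 in WT cells. The marks had 305084 and 201740 (H3K9me3) and 190938 and 228427 peaks (H3K27me3). Peak lists carry no expression, so the cell label was checked by H3K27me3 at gene starts alone, which 21.6% of all genes had. Of 6 epithelial markers, KRT8, KRT18, KRT19 and FOXA1 had none, while NKX2-1 and FOXA2 had it. So did 3 of 4 blood, 3 of 3 endothelial, 2 of 3 muscle, 3 of 3 neuronal and 2 of 3 fibroblast markers.

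FOSL2 peaks near the transition genes were found only without doxycycline. The 10 gene windows held 0 and 0 FOSL2 peaks with doxycycline, against 47 and 7 without it (27 ± 28.3, SD, n = 2), a difference of -27 peaks. The groups did not overlap, but the libraries without doxycycline differed from each other by more than the lower one differed from 0. No gene of the 10 had a FOSL2 peak in either doxycycline library, a state shared by 80.4% of all protein-coding genes, and 9 of the 10 had a peak in at least 1 library without doxycycline, against 79.7% of all genes. A region called in both libraries without doxycycline and in neither with it is called lost below. Lost FOSL2 regions numbered 7 and lay near 5 of the 10 genes, CDH1, EPCAM, CDH2, VIM and SNAI2, where 38.6% of all genes had one, so the count stood near that share. For the same 5 genes the peak counts of the groups did not overlap (37.1% of all genes), and the exact two-sided permutation p of each was 0.333, as low as 4 libraries in these groups can give. When the second library lacking doxycycline was left out, the lost regions reached 9 of the 10 genes. With every FOSL2 list shortened to the 1854 strongest peaks, the length of the shortest, the windows held none in any of the 4 libraries and 0 genes had a lost region.

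**Figure D1:**
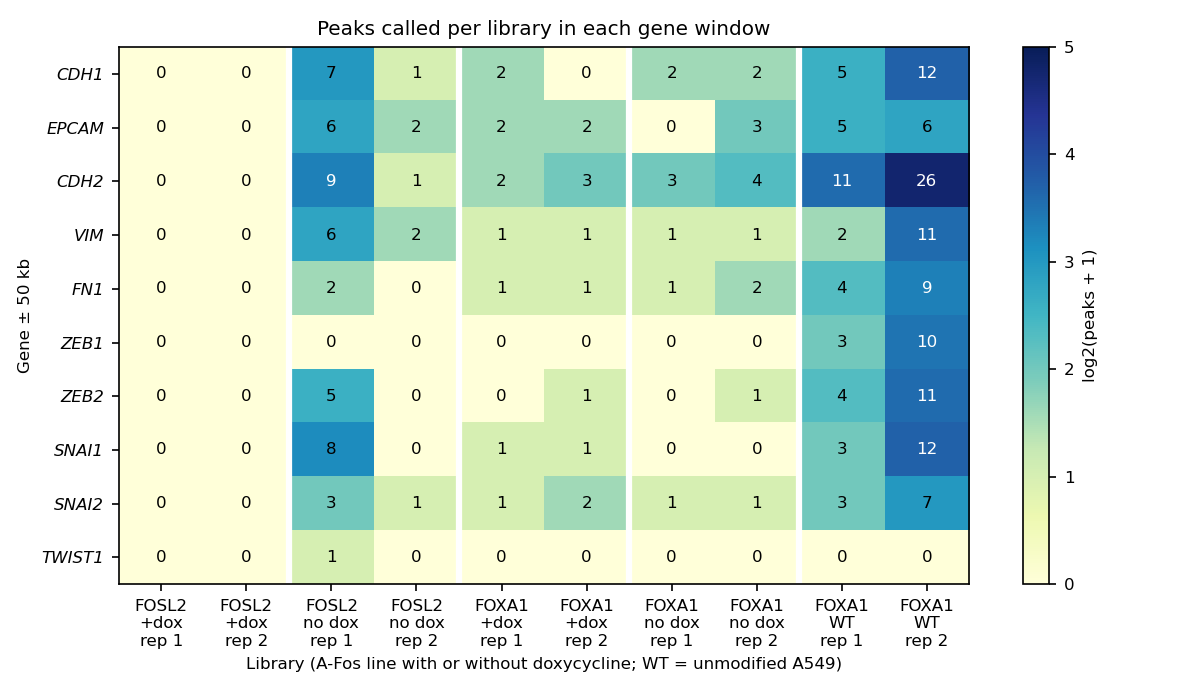
Number of peaks in each gene and 50 kb either side (rows), for each FOSL2 and FOXA1 library (columns); color gives log2(peaks + 1). The FOSL2 columns with doxycycline hold 0 throughout, and the highest count shown, 26, is at CDH2 in the second WT FOXA1 library.

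Among the epithelial genes, CDH1 encodes E-cadherin, the calcium-dependent adhesion protein of adherens junctions (chr16:68737292-68835537). It had 0 and 0 FOSL2 peaks with doxycycline, against 7 and 1 without it. The peak common to both libraries without doxycycline lay inside the gene at chr16:68744736-68745096, about 7.66 kb from its lower-coordinate end, with enrichments of 8.26-fold and 3.65-fold as the authors' peak caller gave them. These stood at percentiles 61.6 and 31.2 of their own lists, so the site was of middling rank in one library and low in the other. EPCAM, an epithelial adhesion molecule of the cell surface (chr2:47369311-47387020), had 0 and 0 FOSL2 peaks with doxycycline, against 6 and 2 without it. Its pair of lost regions, chr2:47354135-47354923 and chr2:47355409-47355988, lay 14.4 kb and 13.3 kb from the gene on the lower-coordinate side. Their enrichments without doxycycline were 23.7-fold and 6.27-fold at the one, and 22.7-fold and 4.28-fold at the other. In the first library both ranked above percentile 90 of the list.

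Among the mesenchymal effectors, CDH2 encodes N-cadherin (chr18:27932879-28177130), and had 0 and 0 FOSL2 peaks with doxycycline, against 9 and 1 without it. Its lost region at chr18:28128245-28128640 lay inside the gene, at percentiles 89.2 and 80.9 without doxycycline. VIM encodes the intermediate filament protein vimentin (chr10:17228241-17237593), and had 0 and 0 FOSL2 peaks with doxycycline, against 6 and 2 without it. Of its pair of lost regions, one lay at the start of the gene (chr10:17228281-17228726), at percentiles 79.0 and 65.8, with summits 288 and 286 bases after the annotated start, just beyond the printed promoter. The antisense gene VIM-AS1 overlaps the same bases, so the region belongs to neither gene alone. VIM was 1 of the 10 genes with a FOSL2 region of both libraries within 1 kb of its start, where 1.63% of all genes had one. FN1, which encodes the matrix glycoprotein fibronectin (chr2:215360865-215436068), had 0 and 0 FOSL2 peaks with doxycycline, against 2 and 0 without it, so its groups met at 0.

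Among the transcription factors, SNAI2 (Slug; chr8:48917598-48921429) had 0 and 0 FOSL2 peaks with doxycycline, against 3 and 1 without it. The common one lay inside the gene at chr8:48918680-48918997, at percentiles 63.4 and 57.7. SNAI1 (Snail; chr20:49982980-49988886) had 0 and 0 with doxycycline, against 8 and 0 without it. ZEB2 (chr2:144384081-144520119), a zinc finger homeobox repressor, had 0 and 0, against 5 and 0 without doxycycline. TWIST1 (chr7:19113047-19117636), a basic helix-loop-helix factor of mesoderm, had 0 and 0, against 1 and 0 without doxycycline. For these last 3 genes every peak came from the first library without doxycycline, whose list was the longer, so the groups met at 0 and no region was lost. The ZEB2 peak at chr2:144357896-144358365 was nevertheless the highest ranked FOSL2 peak near any of the 10 genes, at percentile 91.6 of that list. ZEB1 (chr10:31318417-31529804), the paralog of ZEB2, had 0 FOSL2 peaks in all 4 libraries.

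FOXA1 peak numbers near the 10 genes overlapped between the groups. The windows held 10 and 11 FOXA1 peaks with doxycycline, against 8 and 14 without it (10.5 ± 0.707 and 11 ± 4.24, SD, n = 2 each), a difference of -0.5 peaks. A FOXA1 peak was present near 7 and 7 of the 10 genes with doxycycline, against 5 and 7 without it. By region, 1 gene (VIM) had a lost FOXA1 region, where 8.97% of all genes had one. A region called in all 4 libraries (kept) lay near 3 genes, CDH2, FN1 and SNAI2, against 14.6% of all genes. A region called in both doxycycline libraries and in neither without it (gained) lay near 1 gene, SNAI1, against 6.92% of all genes. No gene of the 10 had non-overlapping counts that were lower with doxycycline (4.45% of all genes), and 1, SNAI1, had counts that were higher (6.76% of all genes). The counts of 1 are near these shares, and no test was run on the count of 3. The count of genes with a lost region was 0 for peaks with a −log10 q of at least 5, and 5 without the first library lacking doxycycline; that with a gained region was 0 for the same peaks, and 5 without the first doxycycline library.

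The lost FOXA1 region of VIM, chr10:17213834-17214417, lay 13.8 kb before the gene, at the far end of VIM-AS1. It was called in neither doxycycline library, against percentiles 27.3 and 95.8 of the lists without doxycycline. In WT cells the same place stood at percentiles 99.0 and 99.2, and was the only FOXA1 region called in both WT libraries near VIM. The first library without doxycycline thus held it as a weak peak and the other as one of its strongest. A FOSL2 peak met it at one edge in 1 library without doxycycline, with its summit 274.5 bp from the median FOXA1 summit, and was not called in the other. With doxycycline VIM had 1 and 1 FOXA1 peaks, against 1 and 1 without it, but those with doxycycline lay elsewhere, at different places beyond the other end of the gene, at percentiles 16.8 and 4.11.

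The 3 kept FOXA1 regions all lay inside their genes. At FN1 the region chr2:215397533-215398268 stood at percentiles 91.9 and 92.7 of its lists with doxycycline, and at 61.0 and 70.2 without it. At CDH2 the region chr18:28147532-28147994 stood at percentiles 75.6 and 86.3 with doxycycline, and at 49.0 and 62.2 without it. At SNAI2 the region chr8:48918591-48918994 stood at percentiles 73.0 and 87.6 with doxycycline, and at 40.2 and 79.4 without it. The ranks of FN1 and CDH2 with doxycycline were above both ranks without it, while those of SNAI2 overlapped. Over all 3205 kept regions of the genome the median percentile was also higher with doxycycline, 82.7 and 86.6, against 70.3 and 80.2 without it. Ranks from lists of different lengths are given as a description, and the difference was not tested.

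SNAI2 and CDH1 each had a place where FOXA1 and FOSL2 met, and the FOXA1 calls differed there. At SNAI2 all 6 FOXA1 lists and both FOSL2 lists without doxycycline had a peak, and the 8 summits fell within 19 bp. The FOXA1 peak was called with doxycycline in both libraries while the FOSL2 peak was called in neither. At CDH1 5 of the 6 FOXA1 lists and both FOSL2 lists without doxycycline had a peak, and the 7 summits fell within 22 bp. FOXA1 there stood at percentile 51.2 and had no call in the libraries with doxycycline, against percentiles 76.6 and 88.3 without it. In WT cells it stood at percentiles 98.2 and 99.0. A second CDH1 region, chr16:68790220-68790798, was called in the same 5 FOXA1 lists but in only 1 FOSL2 list without doxycycline. Its FOXA1 percentiles were 38.3 and no call with doxycycline, against 14.1 and 35.3 without it. CDH1 therefore had 2 and 0 FOXA1 peaks with doxycycline, against 2 and 2 without it, an exact two-sided permutation p of 1.

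**Figure D2:**
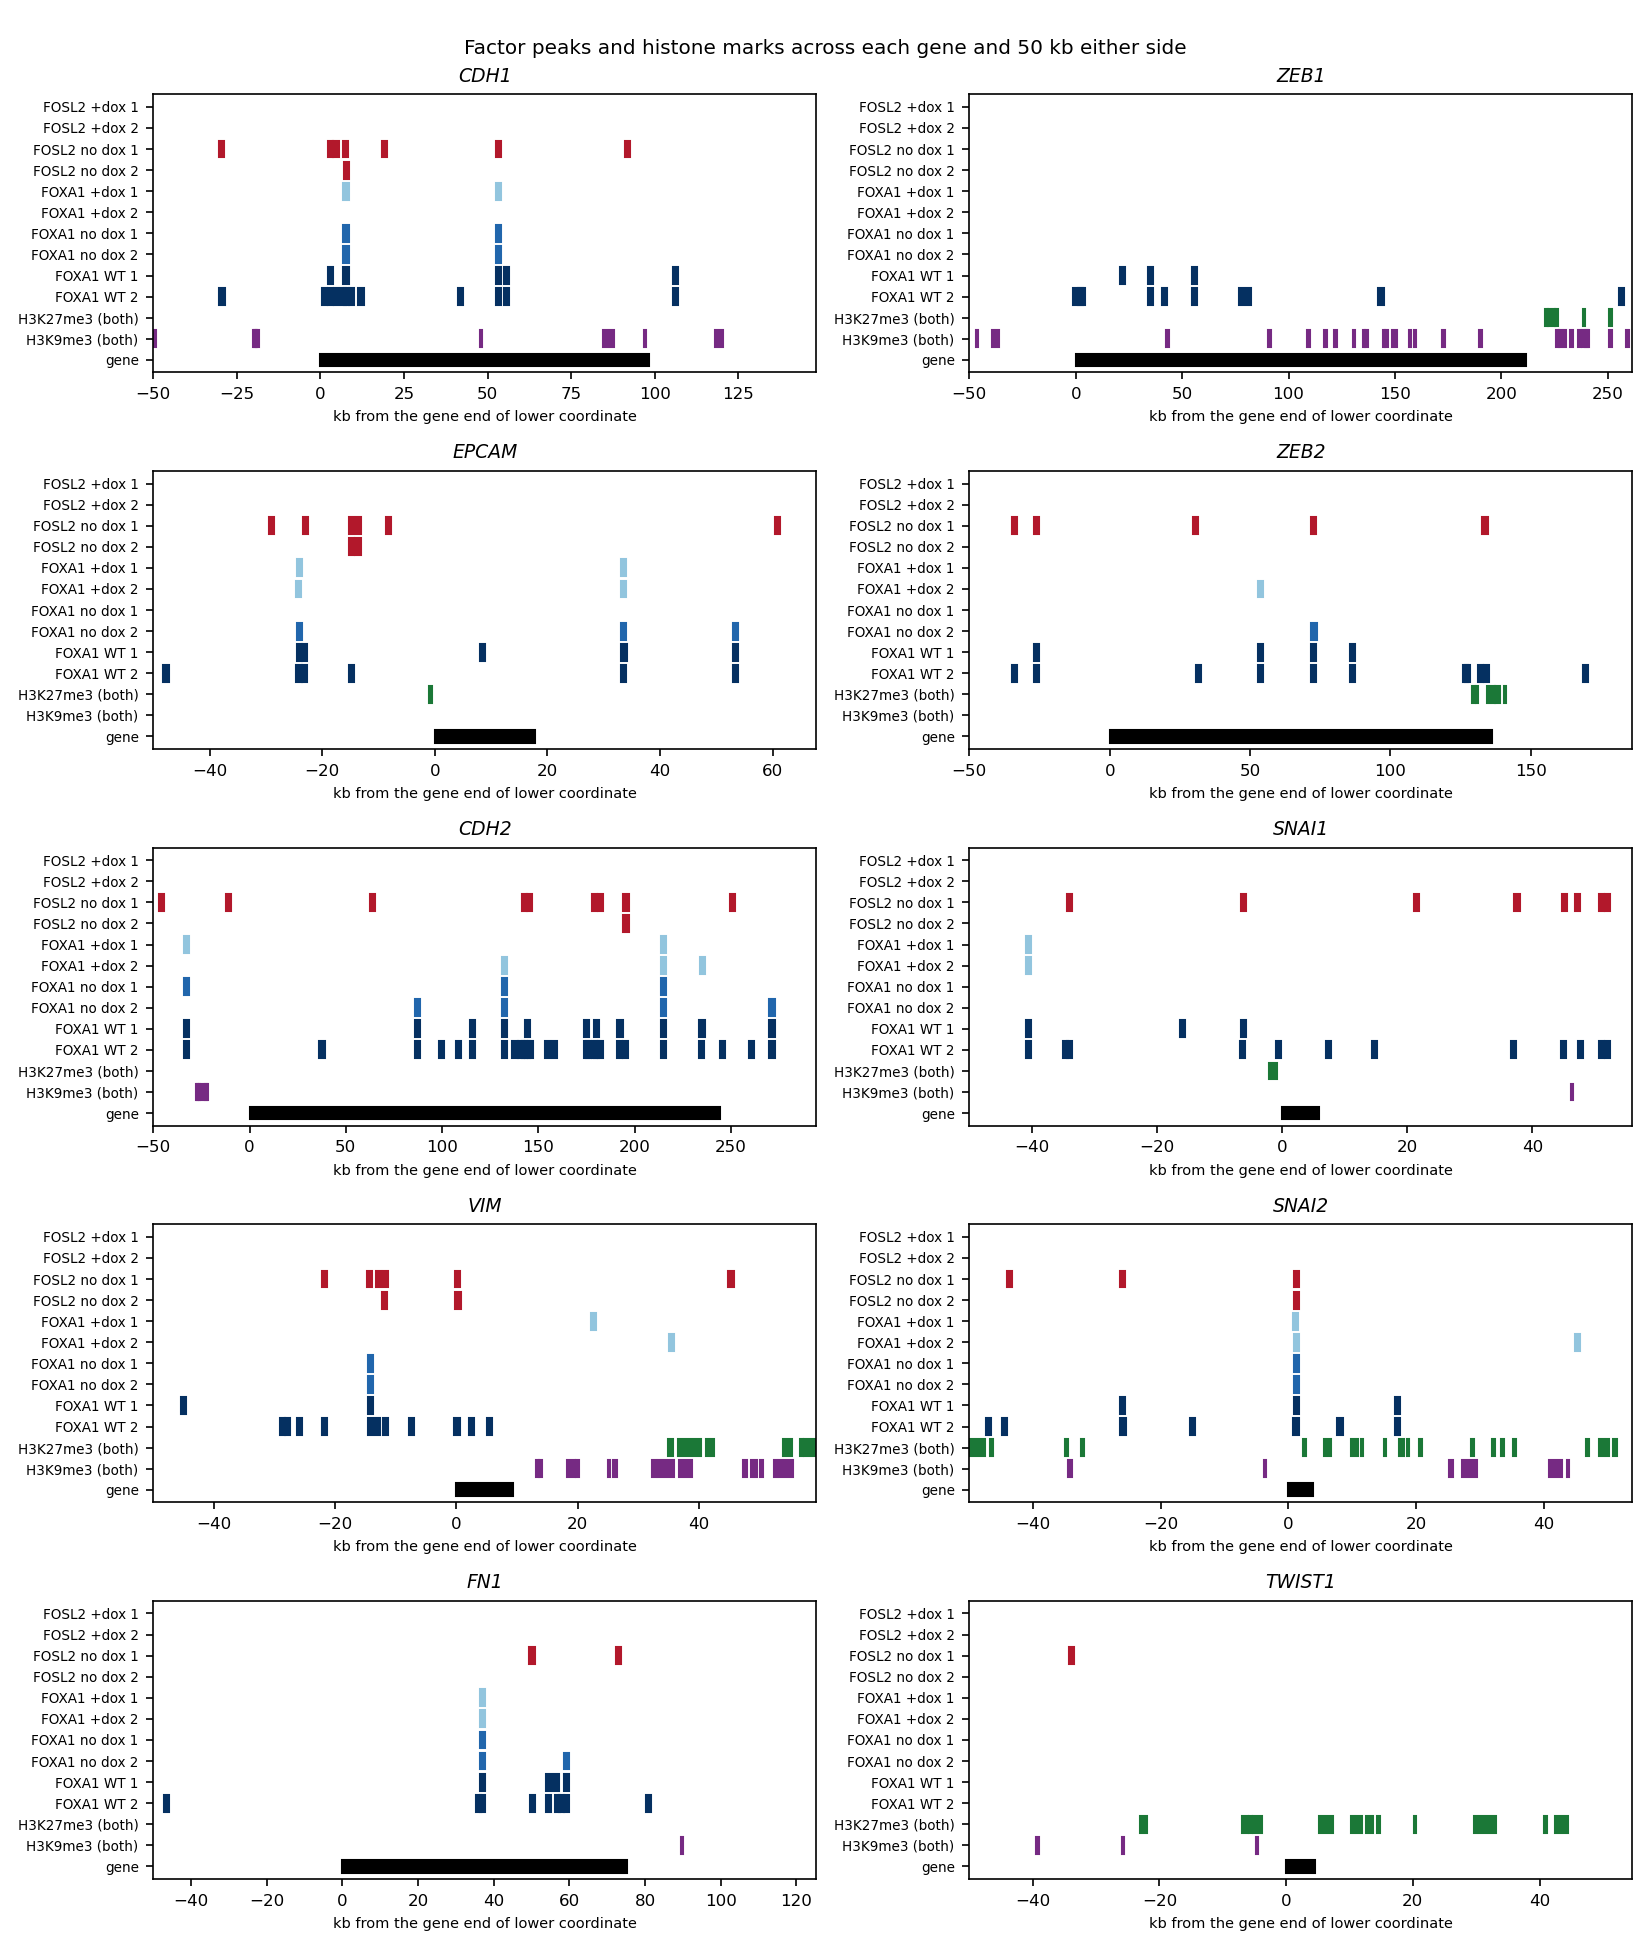
Peaks of FOSL2 and FOXA1 in each library, and H3K27me3 and H3K9me3 where both WT libraries had the mark, across each gene and 50 kb either side, in kb from the gene end of lower coordinate; narrow blocks are widened to be visible. The FOSL2 rows with doxycycline are empty in all 10 panels, the SNAI2 panel has 1 column of peaks shared by 8 lists, and the TWIST1 panel has no FOXA1 peak.

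Of the other genes, EPCAM had 2 and 2 FOXA1 peaks with doxycycline, against 0 and 3 without it. The pair called in both doxycycline libraries lay outside the gene, and both were also called in the second library without doxycycline. ZEB2 had 0 and 1 with doxycycline, against 0 and 1 without it, and these lay at different places inside the gene. The gained region of SNAI1, chr20:49942184-49942652, lay 40.3 kb from the gene and inside RNF114, a ubiquitin ligase gene, so that it may belong to either. It was weak in 1 doxycycline list, at percentile 16.7, and stood at 61.2 in the other. Both WT libraries had a peak at the same place, at percentiles 76.5 and 73.6, so the region was called in 4 of the 6 FOXA1 lists. ZEB1 and TWIST1 had 0 FOXA1 peaks in all 4 A-Fos libraries.

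Over the genome, a FOSL2 region of both libraries without doxycycline overlapped 40.3% of the 1872 lost FOXA1 regions, 20.7% of the 3205 kept ones and 0.704% of the 1279 gained ones. Near the 10 genes it overlapped 0 of 1 lost, 1 of 3 kept (the SNAI2 region) and 0 of 1 gained. These numbers are too small to compare with the genome. Merging the peaks of all 10 factor lists gave 132 places in the 10 windows, of which 78 were called in 1 list only. A FOXA1 peak and a FOSL2 peak met at 26 places, 85 had FOXA1 alone and 21 FOSL2 alone. Where both met, the median distance between their summits was 40.5 bp, and 15 of the 26 lay within 50 bp. Overlapping peaks must have nearby summits, so this distance describes the places and tests nothing.

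Without doxycycline, A-Fos cells had fewer FOXA1 peaks near these genes than WT cells, and shorter lists. The windows held 8 and 14 FOXA1 peaks in A-Fos cells without doxycycline, against 40 and 104 in WT cells. Relative to list length this was 1.05 and 1.06 peaks per 1000 in A-Fos cells, against 0.809 and 1.29 in WT cells, and the groups overlapped on that scale. A region called in both libraries lay near 5 of the 10 genes in A-Fos cells, against 22.6% of all genes, and near 9 of the 10 in WT cells, against 71.6% of all genes. The windows held 36 such WT regions, or 1.99 per 100 kb, where all genes together had 1.45 per 100 kb. In A-Fos cells without doxycycline they held 7, or 0.387 per 100 kb, where all genes together had 0.21. The 2 lines also differ in the integrated A-Fos construct and in list length, and their part in the difference was not tested.

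In WT cells, the FOXA1 regions of highest rank lay in the windows of the epithelial genes and of VIM. The strongest peak stood at percentiles 99.0 and 99.2 at VIM, at 98.2 and 99.0 at CDH1, and at 98.2 and 98.3 in the EPCAM window, outside the gene itself. SNAI2 followed with 94.2 and 95.7, CDH2 with 90.5 and 94.3, and FN1 with 88.9 and 94.6. These 3 overlapped one another in rank. SNAI1 had 76.5 and 82.9 and ZEB1 69.0 and 71.5, which did not overlap. ZEB2, with 58.2 and 81.0, overlapped both, and TWIST1 had 0 FOXA1 peaks in both WT libraries. CDH2, with the longest gene of the 10 at 244 kb, had the most FOXA1 peaks in WT cells, 11 and 26, and VIM had 2 and 11. The spread between the WT libraries was thus wide, the second list being the longer. Of the 36 WT regions, 2 overlapped a FOSL2 region of both A-Fos libraries without doxycycline, at CDH1 and SNAI2, or 5.56%, against 13.5% of the 35739 WT regions of the genome.

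**Figure D3:**
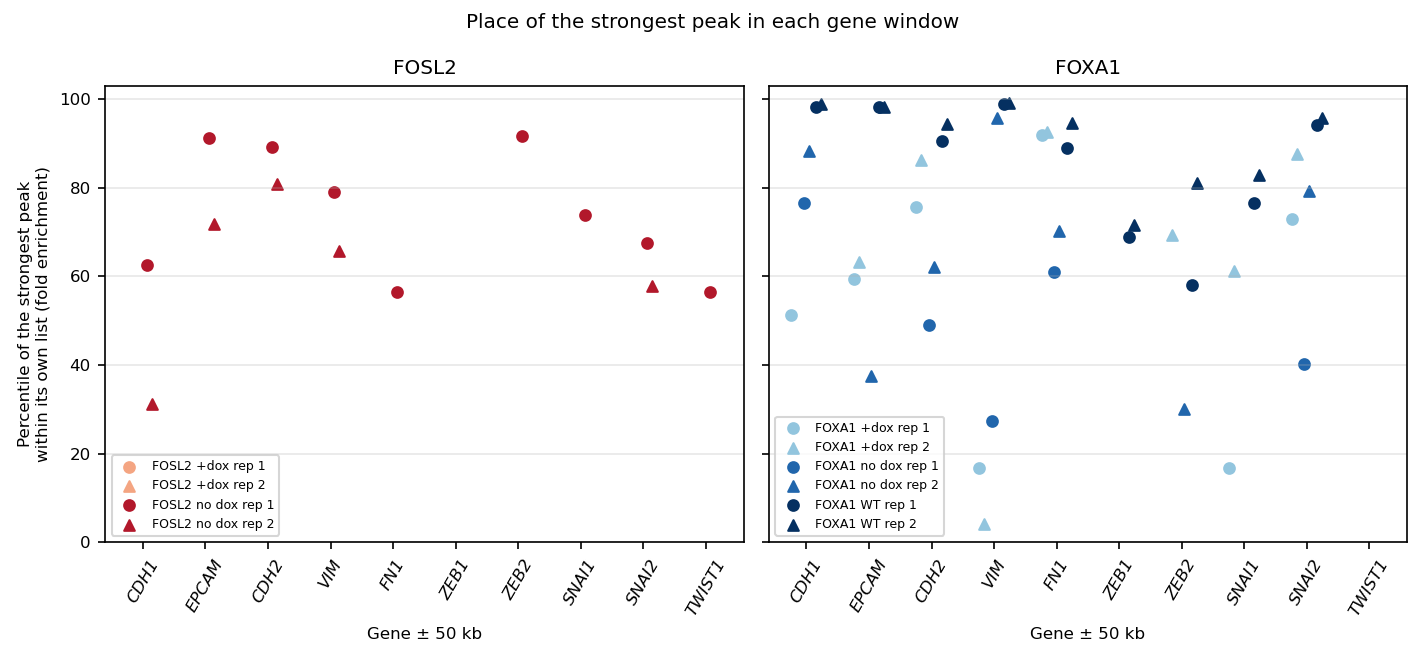
Percentile of the strongest peak in each gene window within its own list, ranked by fold enrichment, for FOSL2 (left) and FOXA1 (right); circles are replicate 1 and triangles replicate 2, and a missing point means no peak. In WT cells CDH1, EPCAM and VIM lie above percentile 98 in both FOXA1 libraries, and no FOSL2 point with doxycycline is present.

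At the gene starts FOXA1 was sparse. SNAI2 was the only one of the 10 genes with a WT FOXA1 region of both libraries within 1 kb of its start or, where no strand was given as here, of either end, against 12.5% of all genes. The region came within 1 kb of the lower-coordinate end only. The FOXA1 and FOSL2 summits there lay at a median of 1.20 kb from that end and 2.63 kb from the other. Which end is the start was not given. On the printed promoters, the second WT library alone had FOXA1 peaks. One at VIM (chr10:17228019-17228695) had 4.10-fold enrichment, percentile 33.1, and covered 272 of the 300 bases. At ZEB1 a peak covered 262 bases of promoter 1 and another 179 bases of promoter 7, at percentiles 11.3 and 20.9. The summit of the last lay 9 bases past the nearer of the paired forkhead motifs. Single-library peaks at these ranks are weak calls, and 15.5% of all promoters had a peak in that library, against 4.23% in the first.

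The repressive marks covered little of these genes, as of most genes: the median cover of the gene by either mark was 0% for the 10 and 0% for all genes. No gene of the 10 had 50% or more of its length under H3K9me3 in both WT libraries (1.97% of all genes) or under H3K27me3 (4.23% of all genes). Any H3K9me3 common to both libraries was found in 2 genes, CDH1 and ZEB1 (36.8% of all genes), and any H3K27me3 in 2 others, ZEB2 and SNAI2 (28.3% of all genes). Within 50 kb, 8 of the 10 had H3K9me3 (80.7% of all genes) and 7 had H3K27me3 (70.9% of all genes). None of the 36 WT FOXA1 regions overlapped a mark of both libraries, where 1.95% of the genome's WT regions overlapped H3K9me3 and 3.23% H3K27me3.

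H3K9me3 was a matter of gene bodies and flanks. ZEB1 had the most inside the gene, with 12.5% and 6.94% of its bases under peaks in the WT libraries, 4.87% common to both, in 15 blocks that total 10.3 kb. None lay within 1 kb of its 7 annotated starts, and 11.6% of all genes had as much cover or more. CDH1 had 5.38% and 6.47%, with 3.05% common to both in 4 blocks. VIM had none in the gene, but the 50 kb beyond its end had 36.2% and 30.2%, with 25.1% common to both, beginning 3.93 kb from the gene. The VIM window, with 11.5% cover, was in the top 5.26% of all genes. SNAI2 had none in the gene, and 25.9% and 11.6% in the 50 kb on the higher-coordinate side. No gene of the 10 had H3K9me3 of both libraries at its start, against 6.07% of all genes.

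H3K27me3 lay close to a start or an end of 3 of the 5 transcription factor genes and of EPCAM. It was within 1 kb of the start, or of either end where no strand was given, at 4 of the 10 genes. Of all genes 21.6% had it there. The 4 were EPCAM, ZEB2, SNAI1 and TWIST1, of which only ZEB2 had an annotated start. A start was known for 5 of the 10 genes and for 15813 of the 19974, so these shares are not like for like. At ZEB2 H3K27me3 covered 38.0% and 50.5% of the 2 kb around the start, 20.0% common to both libraries. The blocks common to both lay on both sides of the start, chr2:144518506-144519470 inside the gene and 48 bp at chr2:144520877-144520924 before it, and left the 300 bases of the promoter itself free. At TWIST1 it covered 21.7% and 49.5% of the 2 kb around the higher-coordinate end and none of the gene body. The block nearest TWIST1, chr7:19118202-19120508, was 2307 bp long and stood at percentiles 97.7 and 96.9 of the H3K27me3 lists. The 50 kb on that side of TWIST1 had 25.3% and 33.2% cover, and the TWIST1 window had the highest H3K27me3 of the 10, at 13.9%, which 14.6% of all genes reached. At SNAI1 a block of 1405 bp began 0.759 kb from the lower-coordinate end. At EPCAM a single block of 319 bp lay 0.565 kb from the gene.

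SNAI2 had H3K27me3 inside the gene, 12.1% and 34.9% of its bases, with 12.1% common to both libraries. This was the highest H3K27me3 cover of a gene body among the 10, and 13.4% of all genes had as much or more. The common block, chr8:48919864-48920326, did not overlap the FOXA1 region of the gene. The flanks of SNAI2 had H3K27me3 on both sides, 11.2% and 14.5% on the lower side and 24.8% and 24.0% on the higher. VIM had none in the gene or the 50 kb before it, and 21.6% and 31.5% in the 50 kb beyond, beginning 25.6 kb away. CDH2 had no H3K27me3 peak in either library over its whole window. CDH1 and FN1 had none inside the gene, and none common to both libraries in their windows.

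**Figure D4:**
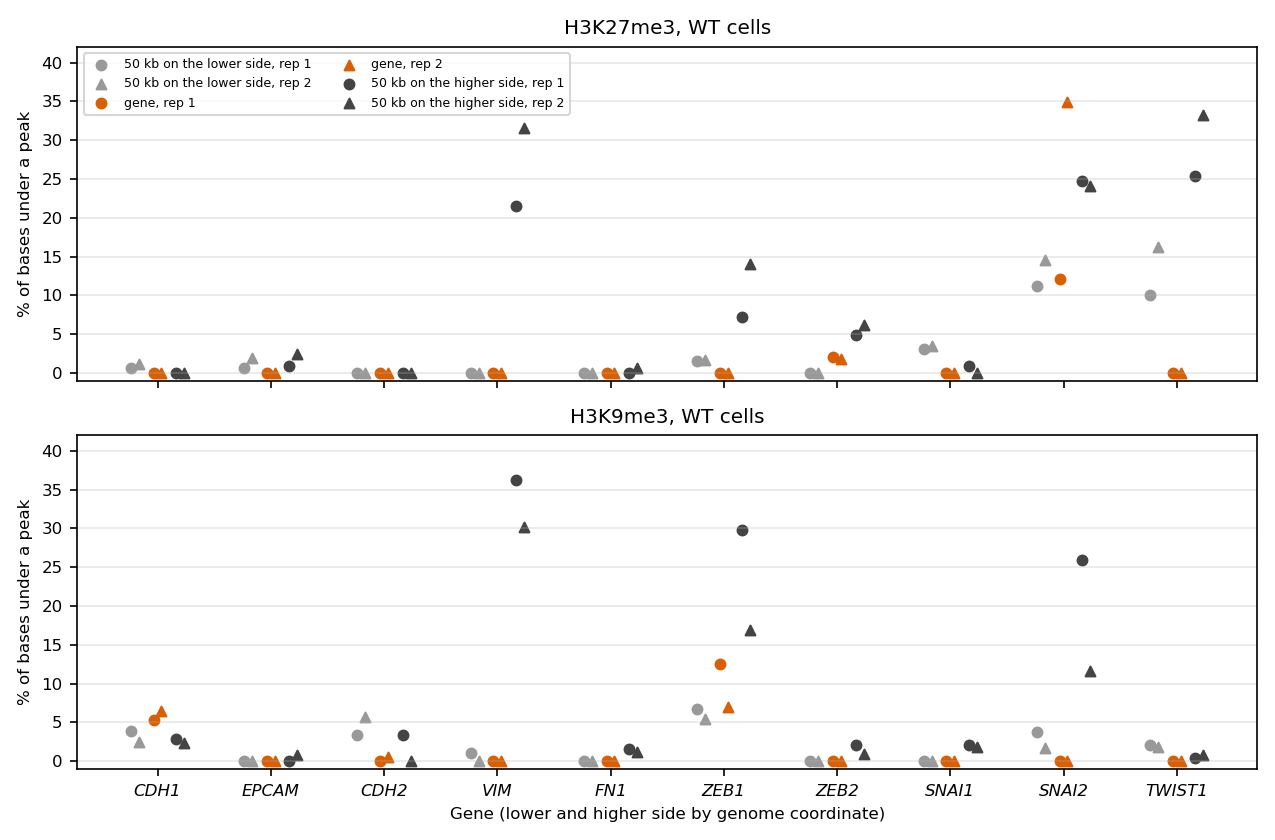
Percent of bases under H3K27me3 (top) and H3K9me3 (bottom) peaks in WT cells, in each gene and in the 50 kb on either side by genome coordinate; circles are replicate 1 and triangles replicate 2. H3K27me3 is highest around SNAI2 and TWIST1 and beyond VIM, and H3K9me3 beyond VIM and ZEB1 and on the higher side of SNAI2.

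The wider pathway was read in 5 lists of 68 genes, whose shares stand beside those of the 10 genes. Neighbours with overlapping windows, such as KRT8 and KRT18 or MIR200C and MIR141, were counted as separate genes. Lost FOSL2 regions lay within 50 kb of 10 of 19 junction and keratin genes, 6 of 10 epithelial regulators, 11 of 21 mesenchymal matrix and cytoskeleton genes, 3 of 12 mesenchymal regulators and 3 of 6 microRNA genes, against 38.6% of all genes. Those within 1 kb of the gene were KRT8, KRT18, F11R, ST14 and CLDN1 among the junction and keratin genes, and CTNND1, GRHL1 and GRHL2 among the epithelial regulators. On the mesenchymal side they were CD44, FBLN5, CDH11, PDGFRB, SPARC and TNC, with the regulators TCF4 and TWIST2. Lost FOXA1 regions lay near 1 of 19, 1 of 10, 5 of 21, 2 of 12 and 1 of 6 genes of these lists in the same order, against 8.97% of all genes. The 5 mesenchymal matrix genes were LUM, FBN1, SPARC, COL1A2 and TNC. Kept FOXA1 regions lay near 5 of 19, 4 of 10, 3 of 21, 0 of 12 and 0 of 6, against 14.6% of all genes, and the epithelial regulators among them were ELF3, CTNND1, GRHL2 and KLF4. Gained ones lay near 2 of 19, 0 of 10, 1 of 21, 2 of 12 and 0 of 6, against 6.92% of all genes.

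WT FOXA1 regions lay near 15 of 19, 9 of 10, 17 of 21, 10 of 12 and 3 of 6 genes of the lists, against 71.6% of all genes. The highest ranked were at KLF4, a zinc finger factor of epithelial differentiation (percentiles 99.93 and 99.97), and GRHL2, a grainyhead factor that maintains epithelial junctions (99.65 and 99.79). KRT8 and KRT18, the paired keratins of simple epithelium, share a region at percentiles 99.3 and 99.6. On the mesenchymal side CD44, the hyaluronan receptor, had 98.2 and 99.3, TNC, the matrix glycoprotein tenascin C, had 98.4 and 99.0, and FOXC2, a forkhead factor, had 99.1 and 99.4. Epithelial and mesenchymal lists thus both held genes with a top 2% WT FOXA1 region in the gene or within 50 kb. These genes were picked for their rank within each list. The share of all genes with such a region was not counted. H3K27me3 was at the start, or at either end where no strand was given, of 6 of 12 mesenchymal regulators (PRRX1, GSC, FOXC2 and LEF1 among them). The same held for 4 of 10 epithelial regulators (OVOL1, GRHL1, OVOL2 and ESRP1) and 3 of 19 junction and keratin genes. It also held for 4 of 21 matrix genes and 0 of 6 microRNA genes, against 21.6% of all genes. OVOL2, an epithelial zinc finger repressor of ZEB1, was the only gene of the 5 lists with 50% or more of its length under the mark, at 56.2%. Of all genes 4.23% had 50% or more.

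**Figure D5:**
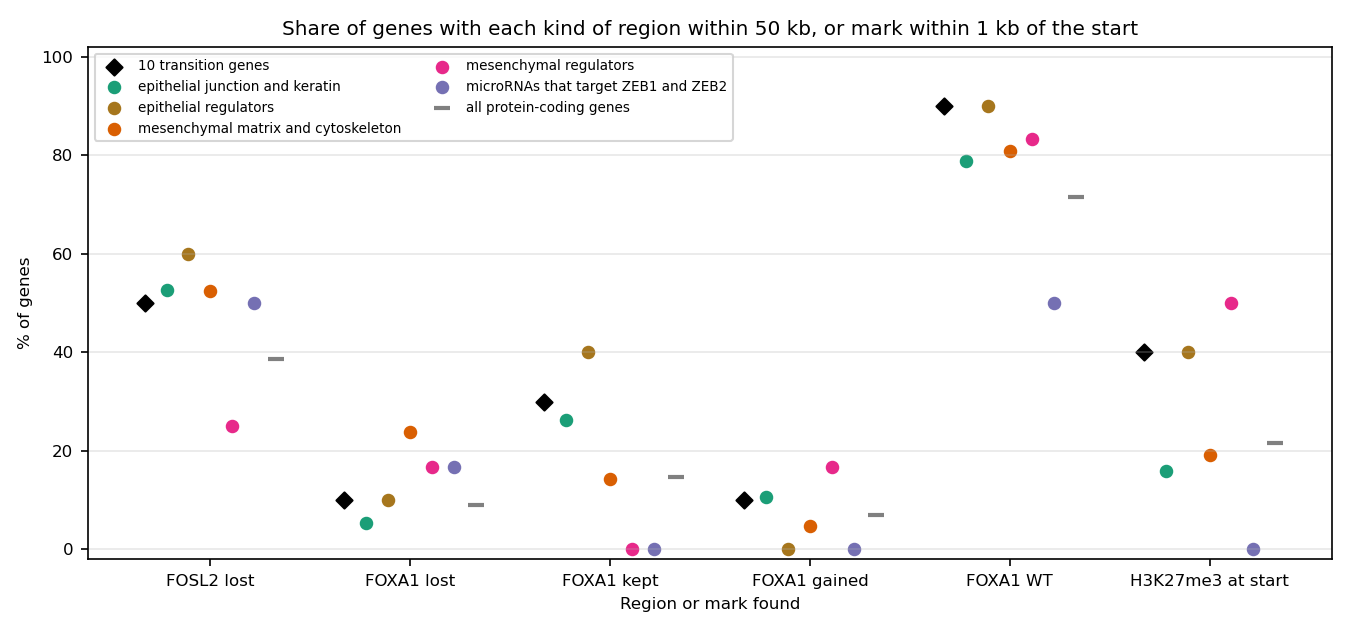
Percent of genes with each kind of region within 50 kb, or with H3K27me3 at the start. The 10 genes are diamonds, the 5 pathway lists circles and all protein-coding genes bars. Where no strand was given, as for 5 of the 10 genes, either end counted as the start. The 10 genes stand at 50% for lost FOSL2 regions and at 40% for H3K27me3 at the start; no interval is drawn, since the genes of a list are not replicates.

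The microRNAs that target ZEB1 and ZEB2 fall into seed families, shown with bases 2 to 8 in capitals (RefSeq, GRCh38.p14).
miR-200b-3p: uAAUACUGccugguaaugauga
miR-429: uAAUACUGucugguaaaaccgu
miR-200c-3p: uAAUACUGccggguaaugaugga
miR-200a-3p: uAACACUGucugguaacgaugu
miR-141-3p: uAACACUGucugguaaagaugg
miR-205-5p: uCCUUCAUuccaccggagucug
MIR200B, MIR429 and MIR200C share the seed AAUACUG, MIR200A and MIR141 share AACACUG, and MIR205 has a seed of its own. The genes lie in 2 clusters and 1 single locus: MIR200B, MIR200A and MIR429 on chromosome 1, MIR200C and MIR141 on chromosome 12, and MIR205 on chromosome 1. The peaks near them are given by locus, since members of 1 seed family lie at different loci. Near MIR205 there were 0 and 1 FOSL2 peaks with doxycycline, against 11 and 1 without it. A lost FOSL2 and a lost FOXA1 region lay within 50 kb of MIR205, with a WT FOXA1 region at percentiles 86.8 and 96.3. MIR200C and MIR141, with overlapping windows, had 0 and 0 FOSL2 peaks with doxycycline, against 5 and 1 without it, and a lost FOSL2 region. Their WT FOXA1 region stood at percentiles 53.6 and 73.3. MIR200B had 0 and 0 FOSL2 peaks with doxycycline, against 1 and 0 without it, and no FOXA1 region of both WT libraries.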

How the data were processed

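The series holds 17 ChIP-seq samples, and 14 peak lists were used; the 3 inputs were not analysed here. Per the labels' protocols, fixation was in 1% formaldehyde for 10 min and reads were 50 bp pairs. Per the submitters' processing notes, MACS2, deepTools, SAMtools 1.8, BWA 2.2.1, fastp 0.23.2 and DRAGEN were among the tools, with build hg38. The sources used here give neither their settings nor how inputs entered the peak calling. The deposited lists give 1 row per peak and 1 list per library. Each row has the fold enrichment (a linear ratio), the p-value and q-value as −log10, and other fields such as the summit position, all written by the authors' caller. Without read counts, neither the depth each library reached nor count-based precision is known. Fold enrichments describe single peaks and were ranked only inside a list.

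Only chromosomes 1 to 22 and X were used. Regions of a factor are overlapping peaks (1 bp or more) of its 4 A-Fos lists, joined over the genome before the 10 genes were looked up. A mark was taken where both libraries had it, unless a value per library is given. Genes are RefSeq intervals of GRCh38.p14, without exons or introns. Starts come from the promoter table, and where it gave no strand either end was used. Percentages of all genes were computed in the same way over 19974 genes, which were not matched to the 10 for window length. Peak counts of single genes were compared by exact two-sided permutation tests over libraries; 2 against 2 cannot give a p below 0.333. The labels call the libraries biological replicates. No test was run over the 10 genes as a set. The 10 genes, the pathway and marker lists and the named-gene rule were chosen with earlier results of these data known. That rule took all 10 genes, the strongest peak per list and those within 1 kb of a start. In each pathway list it took up to 3 genes of highest WT FOXA1 rank, those with 50% cover by a mark and those with a lost FOSL2 region within 1 kb. Other peaks, and the genes named for kept or lost FOXA1 regions, H3K27me3 at the start or a microRNA locus, were chosen after their values were seen. Replicate numbers were not used to pair the libraries in the main comparisons. Alternatives were other windows, the upper 50% of each list, a −log10 q of at least 5, lists of equal length, 50% overlap, either library for marks, other cover thresholds, each library left out and a replicate block. Interval functions were tested on simulated data. Python 3.11.15, numpy 2.4.6, pandas 2.3.3 and matplotlib 3.10.9 were used.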

Additional observations from a re-analysis of the deposited data

How the results depend on the processing

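Over the alternatives run, 88 values of the main comparisons were labelled unchanged and 19 moved. Counts were held to a fixed ratio to the main value, and shares had to be identical. Differences were held to the SD of the libraries without doxycycline. For FOSL2 that SD, 28.3, is larger than the difference of -27 itself, so even a fall to 0 was labelled unchanged. The 88 is therefore no measure of how stable the FOSL2 difference was. The count of genes with a lost FOSL2 region (5) was 0 with lists of equal length, which keeps fewer peaks, and 5 to 9 when 1 library was left out. The count with a lost FOXA1 region (1) was 0 with 10 kb windows, 4 with 100 kb windows, 0 in the upper 50% of each list, 0 at a −log10 q of at least 5, and 1 to 5 with 1 library left out. The count with a kept FOXA1 region (3) was 1 in the upper 50% of each list. The count with a gained FOXA1 region (1) was 0 with 10 kb windows, 2 with 100 kb windows, 0 at a −log10 q of at least 5, and 1 to 5 with 1 library left out. The count with H3K9me3 at the start (0) was 1 with either library, 1 with 2.5 kb windows and 0 to 1 with 1 library left out. Apart from the windows and the shortened lists, the causes were not tested.

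The FOSL2 difference of -27 peaks was -7 without the first library lacking doxycycline, -47 without the second and 0 with lists of equal length. The FOXA1 difference of -0.5 peaks was 2.5 without the second library lacking doxycycline and 2.5 in the upper 50% of each list, so its sign was not stable.

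Deviations of libraries with the same replicate number correlated at 0.0409 (FOSL2, 16153 genes) and 0.0968 (FOXA1, 10637 genes) across genes, which are not independent. Peak counts per gene are small, so low correlations cannot show whether the libraries were paired. With a replicate block the differences were -27 (exact sign-flip p of 0.5, the smallest that 2 pairs allow) and -0.5 (exact p of 1).

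The depth each library reached was not known, so the absence of a peak is the absence of a call in that list, not of binding.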

Other observations

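The identity of neighbouring genes limits what a window assigns to 1 gene. The CDH1 window reaches CDH3, which encodes P-cadherin, and the FOSL2 peak of 1 library at chr16:68707421-68708108 lay inside CDH3. The FN1 window holds ATIC, a purine synthesis gene that overlaps FN1 at its lower-coordinate end, and 0 of the kept, lost or gained regions of FN1 lay there.

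WT FOXA1 peaks were uneven between the libraries near these genes, 40 and 104, and 25 and 60 of them lay inside a gene of the 10. In the second library 58 of the 104 peaks ranked below percentile 50 of their list, and in the first 14 of the 40.

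The FOSL2 peaks near these genes in the 2 libraries without doxycycline ranked at a median percentile of 62.6 and 57.7, and 3 of 47 in the first and 0 of 7 in the second ranked at percentile 90 or above. These peaks lay near 9 of the 10 genes in the first library and near 5 in the second.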
